A study of Homo sapiens with 8 samples.

Results

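The measurements concern 57 genes of interferon and JAK-STAT signalling and the Cut&Run peaks that carried their symbols. In Cut&Run, an antibody in isolated nuclei brings a nuclease to a chromatin protein, and the released DNA is sequenced. The members were chosen by name, with earlier results of these data known. A gene counted as labelled when its symbol stood in the gene column of the deposited peak list. Of the 57 genes, 29 were labelled (50.9%, Wilson 95% interval 38.3 to 63.4%), with 33 peaks among the 7169 gene-labelled peaks and the 15412 peaks of the list. Over the 20090 protein-coding genes of the annotation this share was 30.0%. U937-PR9 is a myeloid cell line with a PML::RARA transgene under a promoter that zinc switches on. Induced cells were given ZnSO4 at 100 μM and uninduced cells water, both for 5 h, and nuclei of each were treated with a PML-RARA antibody or a RARA antibody, with 2 replicates in each of the 4 groups. The list analysed here is that of induced cells and the PML-RARA antibody, and the other 3 groups were not analysed here. Both zinc and the fusion protein were present in the induced cells, so that their parts cannot be told apart in this list.

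Interferons bind receptors on the cell surface, which activate Janus kinases. These kinases phosphorylate STAT transcription factors, which enter the nucleus, and there STAT and IRF factors switch on interferon-stimulated genes that restrict viruses. The same kinases serve many cytokine receptors of blood cells, and SOCS proteins switch the signal off again. The DNA elements known for the pathway have names of their own. The interferon-stimulated response element (ISRE) is read by IRF9-containing complexes and other IRF factors, and the gamma-activated site (GAS) is read by STAT dimers.

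For each peak the list gives a width and a largest signal, called the height here, with 1 value per peak and none per replicate. No spread between replicates and no test could therefore be had, and the values below are descriptions of 1 list. How deeply the libraries were sequenced is unknown, and intervals cover the counting of peaks or genes only. Positions are on hg19. The apex is the midpoint of the interval of largest signal, and its distance to a gene was measured to the nearest start site of that gene in GENCODE release 44, mapped to GRCh37.

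The ISRE was searched as GAAANNGAAA and the GAS as TTCNNNGAA, on both strands, within 200 bp of each apex. An ISRE lay in 6 of the 33 member peaks (18.2%, 8.61 to 34.4%) and in 3.11% of the 7136 other gene-labelled peaks. The ISRE sites are shown because this element is known from the promoters of antiviral genes, each on the strand of its gene, with the element in capitals and 8 bases on each side. IFITM1 held 2 of them. The site of OAS2 reads in the reverse direction.
ADAR, chr1:154580657-154580682, minus strand: gaggaaacGAAAGCGAAAttgaaccg
IFITM1, chr11:313992-314017, plus strand: aacagcagGAAATAGAAActtaagag
IFITM1, chr11:314026-314051, plus strand: acttctgaGAAACTGAAAcgacaggg
OAS2, chr12:113416318-113416343, plus strand: gacttcagTTTCAGTTTCctggctct
ISG20, chr15:89182170-89182195, plus strand: acaaactaGAAACTGAAAcagggtcg
IRF2, chr4:185395944-185395969, minus strand: ggggaagcGAAAATGAAAttgacttt
IFNGR1, chr6:137540763-137540788, minus strand: aaccccagGAAACCGAAAaaaactgg
These sites lay between 48 bp (ADAR) and 137 bp (OAS2) from the apex. Interferon-stimulated genes gave 4 of the 6 peaks, out of 7 labelled peaks of that role. The other 26 member peaks gave 2, those of IRF2 and IFNGR1.

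A GAS lay in 8 member peaks (24.2%, 12.8 to 41.0%), against 7.34% of the other gene-labelled peaks. The following sites are shown because they belong to the regulators that STAT factors are known to switch on, with the element in capitals. CISH held 3 sites within 187 bp of its apex and the 2 labelled peaks of IRF1 held 1 and 2 sites.
CISH, chr3:50649318-50649342, minus strand: gcccgcggTTCTAGGAAgacgctgc
CISH, chr3:50649419-50649443, minus strand: ctggaaagTTCTTGGAAatctgtca
CISH, chr3:50649430-50649454, minus strand: gccccgttTTCCTGGAAagttcttg
IRF1, chr5:131826573-131826597, minus strand: agcctgatTTCCCCGAAatgacggc
IRF1, chr5:131831977-131832001, minus strand: ccctccctTTCCAGGAAgccggcca
IRF1, chr5:131832299-131832323, minus strand: cagaggtgTTCGCGGAAagctctgc
IRF7, chr11:615989-616013, minus strand: gcgcgcccTTCCCGGAAactcccgc
IRF9, chr14:24630759-24630783, plus strand: ctggattgTTCAAGGAAgaaggctc
The remaining GAS peaks were those of IRF2, IFITM1 and IFI35. In IFITM1 the GAS shared 3 bases with the second ISRE. In IFI35, which encodes an interferon-induced protein, the GAS lay 5 bp from the apex.

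A few longer stretches show what lay under the apexes, on the strand of the gene. The first is the IRF1 promoter peak with its GAS in capitals, the second the IRF2 peak, with an ISRE and then a GAS in capitals, and the next the STAT3 peak, the highest of the members. The last stretches are the 100 bases before the canonical start sites of IFITM3 and IFIH1, antiviral genes without a labelled peak, with their ISREs in capitals.
IRF1, chr5:131826470-131826641, minus strand: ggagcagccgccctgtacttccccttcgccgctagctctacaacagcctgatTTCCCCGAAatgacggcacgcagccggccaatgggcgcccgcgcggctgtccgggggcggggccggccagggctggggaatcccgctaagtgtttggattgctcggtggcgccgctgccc
IRF2, chr4:185395763-185395963, minus strand: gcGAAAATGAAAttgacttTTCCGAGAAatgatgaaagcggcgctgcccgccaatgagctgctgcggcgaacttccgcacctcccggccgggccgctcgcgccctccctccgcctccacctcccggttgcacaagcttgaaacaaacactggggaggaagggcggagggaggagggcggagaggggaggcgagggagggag
STAT3, chr17:40540559-40540730, minus strand: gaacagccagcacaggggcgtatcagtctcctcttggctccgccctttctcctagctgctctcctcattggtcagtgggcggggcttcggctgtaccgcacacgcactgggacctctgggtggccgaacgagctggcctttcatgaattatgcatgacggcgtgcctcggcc
IFITM3, chr11:320861-320960, minus strand: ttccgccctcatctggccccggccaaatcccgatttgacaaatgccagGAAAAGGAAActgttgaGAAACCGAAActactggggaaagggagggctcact
IFIH1, chr2:163175195-163175294, minus strand: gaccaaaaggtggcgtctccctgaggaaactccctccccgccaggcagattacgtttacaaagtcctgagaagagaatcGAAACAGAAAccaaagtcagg
IFITM3 had 2 ISREs in this stretch and IFIH1 had 1. A GAS lay within 200 bp of the canonical start site of 8 of the 29 labelled members, of 5 of the 28 without a label and of 7.63% of the other protein-coding genes. A match is a run of letters, not a measured binding site of any factor.

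The labelled genes were spread unevenly over the roles. Labelled peaks were found for all 4 chains of the receptors for type I interferon and interferon gamma. They were also found for 3 of 4 Janus kinases (30.1 to 95.4%) and 4 of 6 STAT factors (30.0 to 90.3%). Among IRF factors 6 of 8 had one (40.9 to 92.9%), as did both IRF2 binding proteins. These roles are small, and the intervals of the Janus kinases and STAT factors reached down to about the 30.0% of all protein-coding genes. Of the SOCS inhibitors, 3 of 8 had one (37.5%, 13.7 to 69.4%). Of the 25 interferon-stimulated genes, 7 were labelled (28.0%, 14.3 to 47.6%), against 22 of the 32 other members (68.8%, 51.4 to 82.0%). By label, the shares of the interferon-stimulated genes and of the SOCS inhibitors were near the 30.0% of all protein-coding genes. Counted by an apex within 1 kb of an own start site, they were 9 of 25 and 7 of 8, against 39.3%. The SOCS inhibitors were thus near the share of all genes by label only. The intervals of the interferon-stimulated genes and of the other members did not overlap, but this division was made with the values known and the difference was not tested. The 28 members with no labelled peak were JAK1, STAT4, STAT5B, SOCS1, SOCS2, SOCS3, SOCS4, SOCS6, IRF4, IRF8, IFI16, IFI30, IFI44, IFIH1, IFIT1, IFIT2, IFIT3, IFIT5, IFITM2, IFITM3, ISG15, MX1, OAS1, OAS3, EIF2AK2, GBP1, GBP2 and XAF1.

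**Figure D1:**
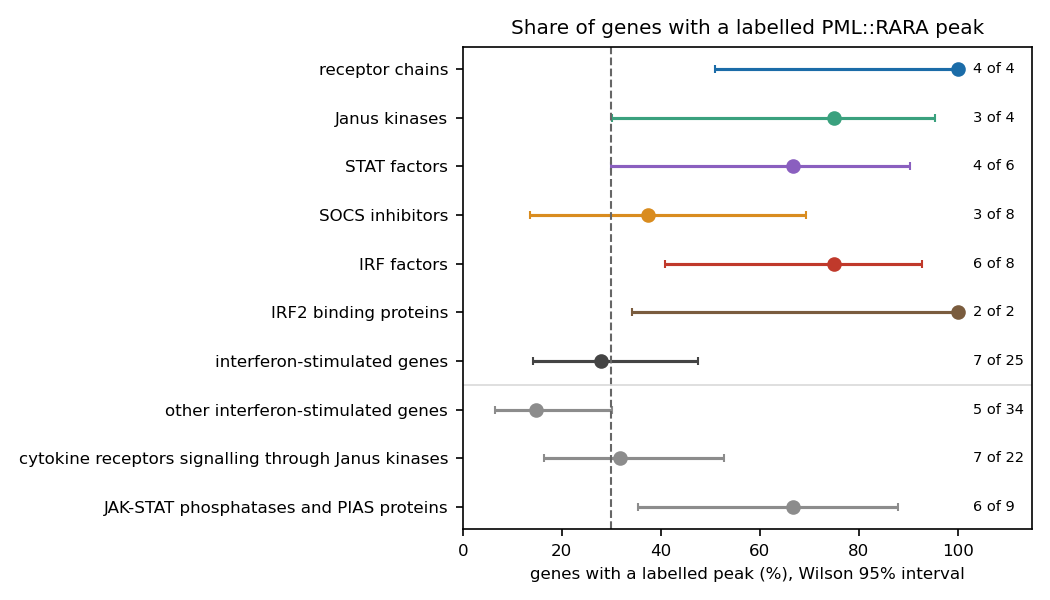
Share of genes with a labelled PML::RARA peak (x axis, percent) by role (y axis), with Wilson 95% intervals and the counts at the right; roles of the 57 members stand above the grey line and other genes of the pathway below it, and the dashed line marks the 30.0% of all protein-coding genes. The point of the interferon-stimulated genes (7 of 25) lies at the line and those of the receptor chains, Janus kinases, STAT and IRF factors lie to its right.

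The heights of member peaks overlapped broadly with those of other labelled peaks, and member widths reached into both ends of the range of the others. Their median height was 30 (95% interval 24 to 36, range 16 to 57) against 26 for the 7136 other labelled peaks (range 13 to 86). Of the 33 peaks, 19 were above 26 (57.6%, 40.8 to 72.8%), and 48.5% of the other labelled peaks were above it. This direction turned when peaks were assigned by an apex within 1 kb of a start site of the gene, to 46.5% of 43 member peaks against 47.5% of the others. Above the 90th percentile, a height of 44, stood 4 member peaks (12.1%, 4.82 to 27.3%), against 9.28% of the others. The median width was 1416 bp (988 to 1843 bp, range 316 to 3603 bp) against 1107 bp for the other labelled peaks. Wider than 1107 bp were 21 of 33 (63.6%, 46.6 to 77.8%), with 50.0% of the others. Above the 90th percentile of width, 2062 bp, were 8 member peaks (24.2%, 12.8 to 41.0%), against 10.0% of the others. At the other end, 5 member peaks (15.2%, 6.65 to 30.9%) were at or below the 10th percentile of width, 522 bp. The intervals of both height shares and of the share above the median width included the value of the other peaks, and that of the widest class lay above it.

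Heights and widths differed between the roles, with overlap. The 7 peaks of interferon-stimulated genes had a median height of 19 and a median width of 794 bp. Above the median of other labelled peaks, 1 of them stood in height and 1 in width (each 14.3%, 2.57 to 51.3%). The 26 peaks of the other members had a median height of 33.5 and a median width of 1644.5 bp. Of these, 18 were above the median height (69.2%, 50.0 to 83.5%) and 20 above the median width (76.9%, 57.9 to 89.0%). The intervals of the height shares overlapped and those of the width shares did not. In height, IRF9, SOCS7, STAT6, IRF7 and IFNAR2, with values from 19 to 24, lay below the median while ISG20 lay above it with 35. The division was chosen after the values were seen, and the differences were not tested.

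**Figure D2:**
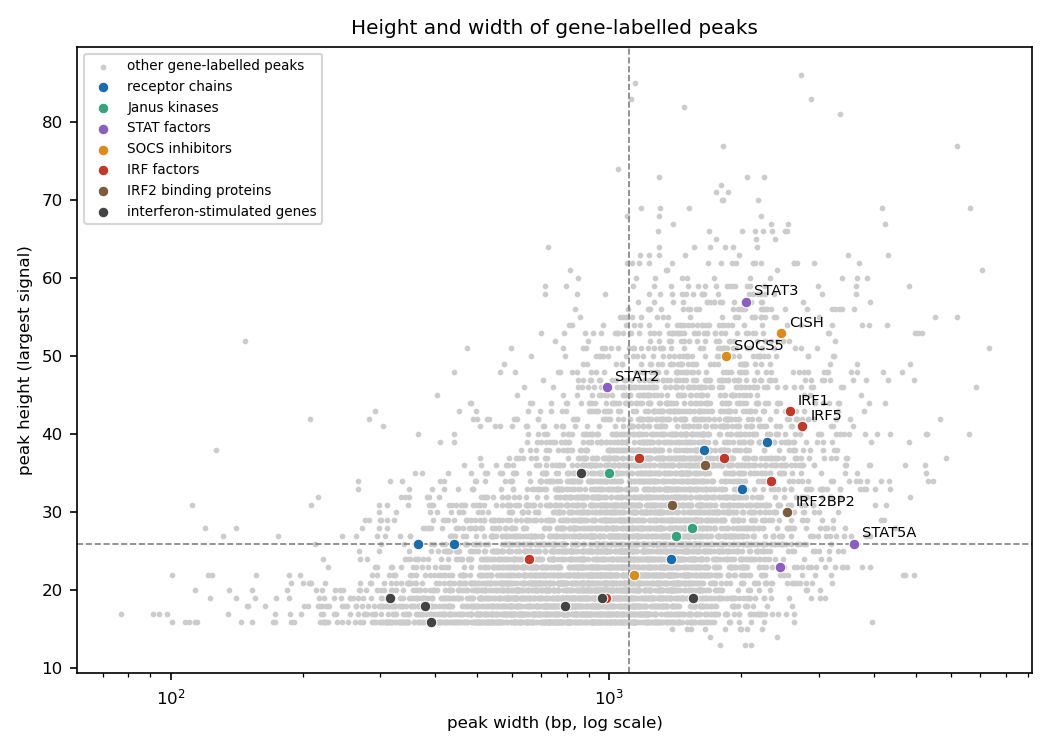
Width (x axis, bp, log scale) and height (y axis, largest signal) of the gene-labelled peaks, with the 33 member peaks coloured by role, the 7136 other peaks in grey, and dashed lines at the medians of the others, 1107 bp and 26. STAT3, CISH and SOCS5 lie high and to the right, STAT5A is the widest member at 3603 bp, and 6 of the 7 peaks of interferon-stimulated genes lie below the line of height.

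All 4 receptor chains among the members were labelled. IFNGR1 (ENSG00000027697), the ligand-binding chain for interferon gamma, had a peak at chr6:137538941-137541221 with a height of 39 over 2281 bp, wider than 93.4% of the other labelled peaks. The apex was 81 bp before a start site. IFNGR2 (ENSG00000159128), the partner chain, was the member with the most labelled peaks. Its peaks at chr21:34773208-34773650, chr21:34773933-34774298 and chr21:34774756-34776764 had heights of 26, 26 and 33, with apexes 2184, 1603 and 601 bp upstream of the start site. The chains for type I interferon had 1 peak each. That of IFNAR1 reached a height of 38, with the apex 3 bp from a start site, and that of IFNAR2 reached 24, with the apex in intron 1.

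IFNAR2, IFNAR1 and IFNGR2 are neighbours on chromosome 21, together with IL10RB, a chain of the receptors for interleukin 10 and interferon lambda. From 10 kb before IFNAR2 to 10 kb after IFNGR2, over 294 kb (chr21:34567587-34861655), the list held 25 peaks, with heights from 16 to 54 and a median of 26. A gene label stood on 8 of them, 5 with the name of a receptor member, and 17 had none. Over the whole list, 8243 of the 15412 peaks had none. The region was chosen after its values were seen, and its number of peaks was not compared with that of other regions. The highest of the 25 was unlabelled, at chr21:34752620-34753319, with a height of 54. Its apex lay 55.8 kb past the IFNAR1 start site, between IFNAR1 and IFNGR2. Another unlabelled peak, at chr21:34587431-34588968, had a height of 50 and lay upstream of the canonical IFNAR2 transcript, inside the annotated gene. Both were higher than each of the 5 receptor-labelled peaks there, which reached 38.

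**Figure D3:**
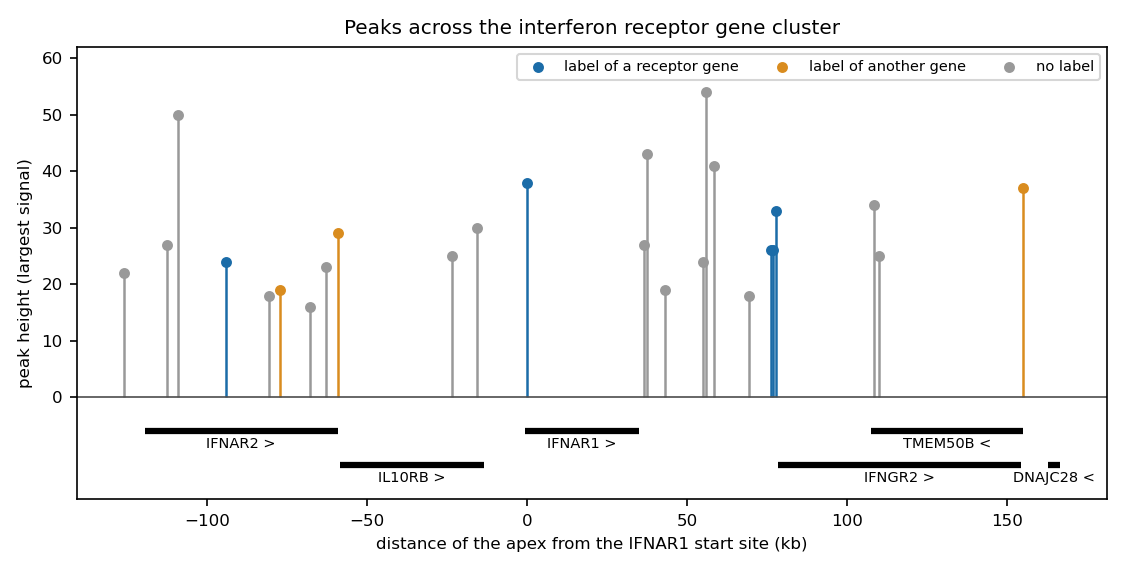
Height (y axis, largest signal) of the 25 peaks across the receptor cluster against the distance of the apex from the canonical IFNAR1 start site (x axis, kb), coloured by label, with genes as black bars below and > or < for their strand. The 2 highest peaks, 54 and 50, are unlabelled (grey), and the 3 IFNGR2 peaks stand close together before the start of that gene.

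The Janus kinases are the enzymes bound to the receptor tails. JAK2, JAK3 and TYK2 had labelled peaks with heights of 28, 35 and 27 and widths of 1541, 997 and 1416 bp. All 3 apexes lay within 71 bp of a start site. JAK1 carried no label, and no peak lay at its canonical start site. A peak inside the gene, at chr1:65329713-65330244 in intron 8, had a height of 16, near the lowest in the list, with its apex 484 bp from an internal start site.

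Of the STAT factors, STAT3 and STAT2 were among the highest labelled peaks and STAT5A and STAT6 among the widest. STAT3 (ENSG00000168610), which serves interleukin 6 and granulocyte colony-stimulating factor, had a height of 57, above 97.9% of other labelled peaks. Its peak at chr17:40539223-40541267 was 2045 bp wide, with the apex 72 bp before a start site. STAT2 (ENSG00000170581), the subunit that pairs with IRF9 in the type I interferon response, had a height of 46 at chr12:56753400-56754387, above 91.5% of the others, with a width of 988 bp. STAT5A (ENSG00000126561), used by many growth factor receptors of blood cells, had the widest member peak, 3603 bp at chr17:40438308-40441910, wider than 98.9% of the others, with a height of 26. STAT6 (ENSG00000166888), the factor of interleukin 4, had a width of 2444 bp at chr12:57503956-57506399, wider than 94.8%, and a height of 23. Its interval of largest signal lacks an end in the list, and its start was used as the apex. STAT3 and STAT2 were therefore high and the other pair wide at ordinary or low height.

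STAT5B, the paralog and neighbour of STAT5A, carried no label. The STAT5A peak had its apex 161 bp from a STAT5A start site and 1112 bp from the canonical STAT5A start. The same apex lay 945 bp from one of the STAT5B start sites and 10995 bp from the canonical STAT5B start. The list cannot say which gene the peak belongs to. STAT4, the factor of interleukin 12, had no peak within 147 kb of the gene.

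The SOCS family are inhibitors of cytokine signalling, and some of them are switched on by STAT factors and block the kinases or receptors in turn. CISH (ENSG00000114737) had a height of 53, above 96.1% of other labelled peaks, and a width of 2459 bp at chr3:50647917-50650375, wider than 94.9%. It was the 1 member both among the highest and among the widest 10%. Its apex lay 312 bp upstream of the CISH start site and 178 bp from a start site of MAPKAPK3, a kinase gene on the other strand, and its 3 GAS are those printed above. Unlabelled peaks on both sides, at chr3:50637767-50640075 and chr3:50657538-50658634, had heights of 51 and 46. SOCS5 (ENSG00000171150) had a height of 50 at chr2:46925400-46927242, above 94.6%, with its apex 26 bp from a start site, and SOCS7 had a height of 22.

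For SOCS genes the gene label and the distance to a start site gave different counts. Labels stood on 3 of 8, but 7 of 8 had an apex within 1 kb of a start site of their own, against 39.3% of protein-coding genes. SOCS3 (ENSG00000184557), the feedback inhibitor of STAT3 signalling, had an unlabelled peak at chr17:76355832-76357346 with a height of 42 over 1515 bp, 127 bp upstream of its canonical start. SOCS1, the main inhibitor of interferon gamma signalling, had an unlabelled peak at chr16:11349609-11350947 with a height of 23, 377 bp upstream. At SOCS2 the peak at chr12:93963203-93965972, with a height of 32 over 2770 bp, carried the label of its antisense RNA, SOCS2-AS1. At SOCS4 the peak at chr14:55493400-55494265, with a height of 20, carried the label of WDHD1, which starts on the other strand. SOCS6 had no peak within 10 kb.

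The IRF factors bind the ISRE or related letters. IRF1 (ENSG00000125347), itself an early target of interferon gamma, had 2 labelled peaks. The first, at chr5:131825529-131828103, had a height of 43 over 2575 bp, wider than 95.6% of the others, the apex being 72 bp before a start site. The second, at chr5:131831019-131832840, had a height of 37 over 1822 bp. Higher than both were 2 unlabelled peaks downstream of the canonical transcript, at chr5:131801631-131803810 with a height of 61 and at chr5:131791915-131793648 with a height of 51. IRF5 (ENSG00000128604), a factor of the inflammatory response, had a height of 41 over 2746 bp at chr7:128578816-128581561, wider than 96.5%, with the apex in intron 1. IRF3 (ENSG00000126456), the factor that virus sensors activate first, had a height of 34 over 2338 bp at chr19:50167411-50169748, wider than 94.0%. Its apex lay 22 bp from its own start site and 36 bp from that of BCL2L12 on the other strand. IRF2, a competitor of IRF1, had a height of 37. IRF7, which drives type I interferon genes, had a height of 24, and IRF9, the DNA-binding subunit with STAT2, a height of 19.

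IRF8 and IRF4, the IRF factors known for blood cell fate, were not labelled. No peak lay at the IRF8 promoter. Within 100 kb of its canonical start site the list held 8 peaks, and the highest, unlabelled at chr16:85961713-85962738, had a height of 66, above 99.5% of all peaks of the list. It lay 29.4 kb past the start and 5.50 kb past the end of the gene, and it was higher than every labelled member peak. The nearest peak to IRF4 was 94.6 kb away.

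IRF2BP1 and IRF2BP2, corepressors that bind IRF2, were both labelled. IRF2BP2 (ENSG00000168264) had 2 peaks, at chr1:234742918-234745462 with a height of 30 over 2545 bp, wider than 95.4% of the others, and at chr1:234745709-234747356 with a height of 36 over 1648 bp. IRF2BP1 had a height of 31. Members with 2 or more labelled peaks were IRF1, IRF2BP2 and IFNGR2, 3 of 29, and over all labelled genes this share was 8.42%.

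**Figure D4:**
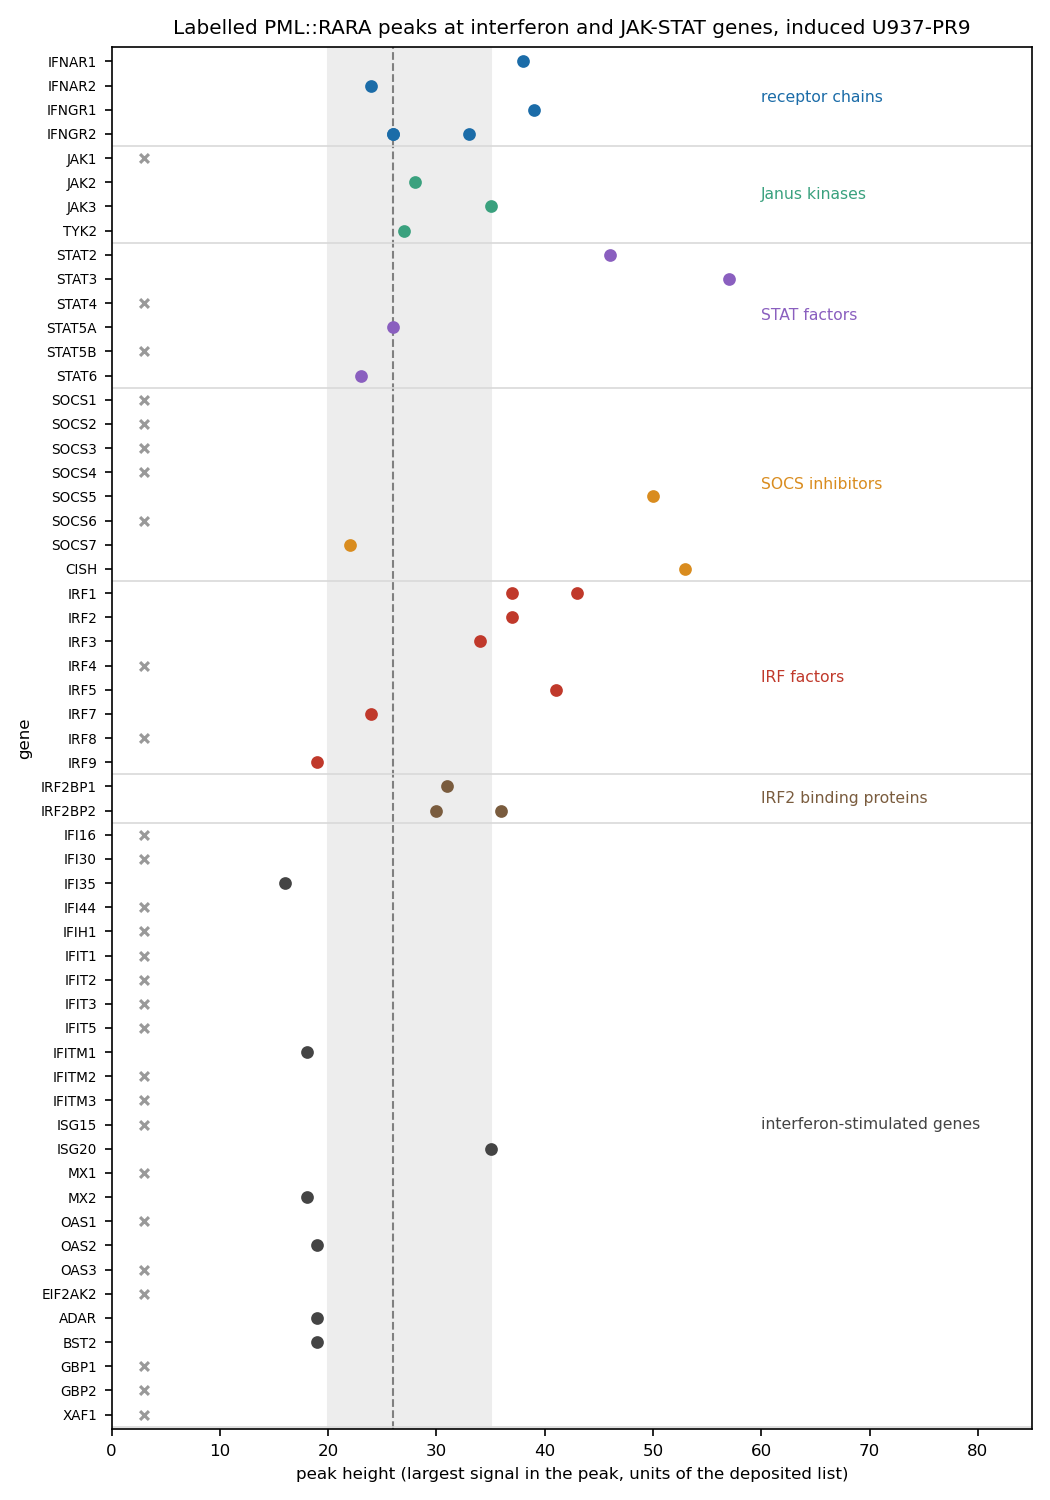
Height of each labelled peak (x axis, largest signal) for the 57 genes by role (y axis); a grey cross at the left marks a gene without a labelled peak, the dashed line is the median of the other labelled peaks, 26, and the grey band their quartiles, 20 and 35. The 2 lower IFNGR2 peaks coincide at 26. STAT3, CISH and SOCS5 reach 50 or more, and the interferon-stimulated genes are mostly crosses or points left of the line.

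The interferon-stimulated genes with a labelled peak were ADAR, BST2, IFI35, IFITM1, ISG20, MX2 and OAS2. ISG20, an exonuclease of RNA, had a height of 35, above 74.6% of other labelled peaks, and was the only one of the 7 above their median. OAS2, a synthase that activates RNase L, ADAR, an editor of double-stranded RNA, and BST2, which tethers virus particles to the cell, each had a height of 19. IFITM1, which hinders virus entry, and MX2, a GTPase against viruses, each had a height of 18. IFI35 (ENSG00000068079) had a height of 16 at chr17:41158572-41158964, and 0.196% of the other labelled peaks were lower. It was the 1 member peak at or below the 10th percentile of height, 17. Widths ran from 316 bp (ADAR) to 1550 bp (BST2). The BST2 apex lay in coding exon 1 and 250 bp from a start site of MVB12A.

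The other 18 interferon-stimulated genes lacked a labelled peak, and 12 of them had no peak of any kind over the gene or within 10 kb (48.0% of the 25). This held for 3 of the 32 other members and for 46.7% of all protein-coding genes, so that the interferon-stimulated genes stood near the background here too. The IFIT genes, whose products bind viral RNA, lie side by side on chromosome 10, and from IFIT2 to IFIT5 their cluster of 138 kb (chr10:91043451-91181362) held 0 peaks of the list. The closest peak to it carried the label of LIPA and lay 31.5 kb from IFIT2. IFI44 and IFIH1, the latter a sensor of viral RNA, were 966 and 1106 kb from the nearest peak. IFI30, MX1, OAS1, EIF2AK2, GBP1 and GBP2 were between 14.5 kb (IFI30) and 113 kb (GBP2) from one. Near IFITM2, ISG15, OAS3 and XAF1 a peak lay within 10 kb but at no start site of their own. IFI16 and IFITM3 had unlabelled peaks with heights of 24 (chr1:158985351-158985661) and 23 (chr11:326429-327589), 21 and 260 bp from an alternative start site and 5.79 and 6.32 kb from the canonical one. Whether these genes were expressed was not measured here.

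Counted by distance in place of label, 37 of the 57 members had an apex within 1 kb of any start site of their own, against 39.3% of protein-coding genes. With the canonical start site alone the count was 29, against 35.6% of genes. Of these, 7 were interferon-stimulated genes and 22 were other members, the same counts as by label, although SOCS1, SOCS3 and SOCS4 entered and IRF5, IRF2BP2 and STAT5A dropped out. The median distance of the 33 apexes from the start site was 72 bp, against 102 bp for other labelled peaks. Of the 33 apexes, 30 were within 1 kb (90.9%), against 92.3% of the others.

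Other letters were searched in the same windows. The ETS core GGAAGT was found within 200 bp of 16 of 33 apexes (48.5%, 32.5 to 64.8%), against 36.7% of other labelled peaks. The AP-1 site TGANTCA was found in 3 (9.09%), against 7.40%. The hexamer AGGTCA, which retinoic acid receptors bind, was found in 4 (12.1%, 4.82 to 27.3%), against 16.6%. The intervals of ETS and of the hexamer included the share of the other peaks, and those of the ISRE and the GAS did not. The members, chosen by name, include genes that interferon or STAT factors are known to switch on, so this comparison is not a test. For the 26 peaks of members other than interferon-stimulated genes, the ISRE share was 7.69% (2.14 to 24.1%). This interval included the 3.11% of other labelled peaks. The GAS share of the same 26 peaks was 23.1%, with an interval above the 7.34% of other labelled peaks.

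An ISRE was found at start sites of interferon-stimulated genes with and without a peak. Within 200 bp of the canonical start site, 16 of the 25 held an ISRE, 5 of the 7 with a label and 11 of the 18 without. It was present at 2 of the 32 other members, IRF2 and SOCS1, and at 3.65% of the other protein-coding genes. A labelled peak was counted for 5 of the 16 interferon-stimulated genes with the letters and for 2 of the 9 without.

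The start sites of the interferon-stimulated genes were poor in CpG. In the 401 bp around the canonical start site the median count of CpG dinucleotides was 10 in the interferon-stimulated genes, 43 in the other members and 33 in the other protein-coding genes. Among those other genes, split into 3 classes of about equal size, 11.3% of the class with the fewest CpGs (23 or fewer) were labelled, against 39.9% of the middle class (up to 41) and 40.6% of the highest class. Of the interferon-stimulated genes, 18 fell in the lowest class, and 6 of these were labelled. In the middle class 1 of 5 was labelled, and in the highest class 0 of 2. The other members were labelled in 3 of 5, 7 of 9 and 12 of 18. The interferon-stimulated genes were thus labelled above the share of other genes in the lowest class and below it in the others, where they numbered 7. The part of CpG content in the difference between the roles was not tested.

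**Figure D5:**
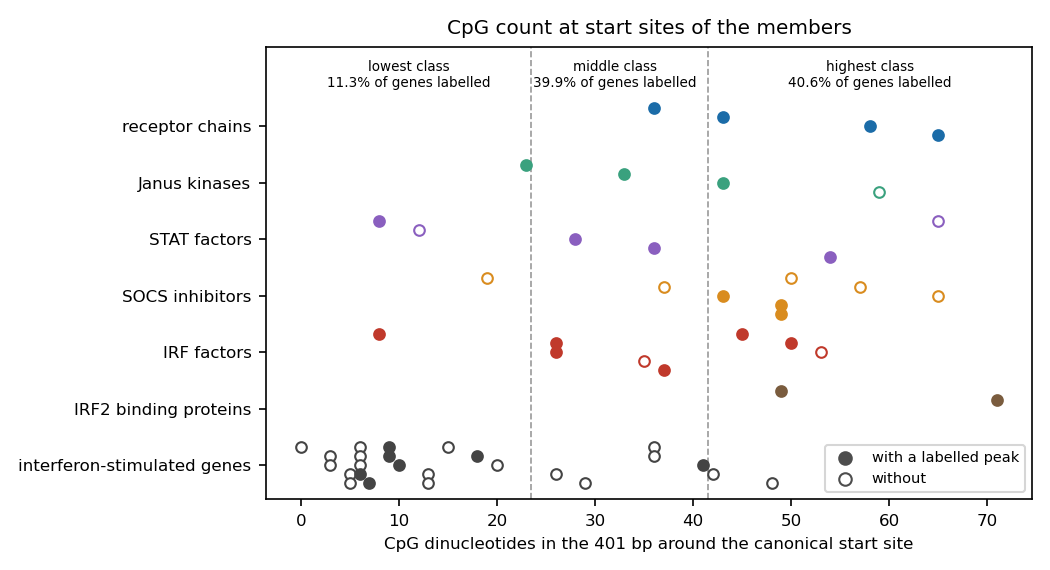
CpG dinucleotides in the 401 bp around the canonical start site (x axis) of the 57 members by role (y axis), filled where the gene had a labelled peak and open where not; dashed lines part the 3 CpG classes of all other protein-coding genes (lowest, middle and highest), with the share of labelled genes in each. Most interferon-stimulated genes (18 of 25) lie in the lowest class, where 11.3% of other genes were labelled, and most other members lie to the right.

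Further genes of the pathway were taken from 3 lists. Of 34 other interferon-stimulated genes, 5 were labelled (14.7%, 6.45 to 30.1%), namely PSMB8 and TAP1 of antigen presentation with heights of 38 and 27, PLSCR1 with 22, IFI6 with 21 and CMPK2 with 16. Of 22 chains of cytokine receptors, where the receptors signal through Janus kinases, 7 were labelled (31.8%, 16.4 to 52.7%). Their highest peaks were those of IL6R with heights of 37 and 35, LEPR with 31 and IL21R with 31, and CSF3R, the receptor of granulocyte colony-stimulating factor, had a height of 21. Of 9 phosphatases and PIAS proteins, which dampen the pathway, 6 were labelled (66.7%, 35.4 to 87.9%), with heights from 16 to 27. In all, 18 of these 65 genes were labelled (27.7%, 18.3 to 39.6%), near the 30.0% of all protein-coding genes. The interval of the other interferon-stimulated genes reached that value and overlapped the interval of the interferon-stimulated members.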

How the data were processed

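Cut&Run of 8 libraries was described, and 1 list was used, that of induced U937-PR9 cells and the PML-RARA antibody. Per the submitters' processing notes and the paper's methods, the authors used Trimmomatic for trimming, Bowtie2 for alignment to hg19, SAMtools for duplicates and SEACR for peak calling with the paired control as background, and kept peaks reproducible across both biological replicates at an IDR below 0.05. Tool versions and the promoter distance behind the gene labels are not given in the sources used here. The authors deposited a total signal per peak, summed over its width, and a score, which is the largest signal and is called the height. This reading rests on the values, since total signal was below height times width in all 15412 peaks. Whether the values come from 1 replicate, a mean or pooled reads is not given in the sources used here. A higher control signal, a stricter threshold or another promoter definition would change which genes are listed.

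Labels were joined by symbol, and 6381 of the 6546 labelled symbols occur in GENCODE release 44 on GRCh37. The members and gene lists were chosen with earlier results of these data known. All 57 members are accounted for, and full values are given for members among the highest or widest 10% or the lowest 10% of labelled peaks, with 2 or more labelled peaks, or without a label but with an apex within 1 kb of an own start site. Sequences centred on the apex were to be shown for the highest peak of each role and for peaks with an ISRE. The GAS sites, the start-site stretches and the short sites were added, and the longer stretches cut down to 5, after the matches were seen, and UTR bases were removed beyond the sites. The IRF8 and receptor-cluster peaks were also chosen after their values were seen. Shares have Wilson 95% intervals and medians binomial ones. No test was made. Scripts were tested on simulated data. Analyses used Python 3.11.15 with pandas 2.3.3, pysam 0.24.0, numpy 2.4.6, matplotlib 3.10.9, scipy 1.17.1 and samtools 1.23.1.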

Additional observations from a re-analysis of the deposited data

How the results depend on the processing

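No paired analysis was possible because values per replicate were not part of the list, and for the same reason no replicate could be left out. The 29 labelled members became 18 when peaks below the median height were dropped, a shorter list by construction, and lay between 24 and 38 under the other definitions. The share of member peaks above the median height of the others, 57.6%, reversed to 46.5%, against 47.5% of the comparison peaks, when peaks were assigned by an apex within 1 kb of a start site, and was between 54.5% and 69.7% otherwise. The share above the median width, 63.6%, moved to 78.8% against all other peaks, of which many are narrow and unlabelled, and was between 60.5% and 76.9% otherwise. The ISRE share of 18.2% moved to 6.06%, against 0.224% of other labelled peaks, with the longer pattern GAAANNGAAACT. With other windows the share of the first pattern was between 12.1% (100 bp, against 1.56%) and 24.2% (500 bp, against 8.98%). Leaving out the interferon-stimulated genes and counting by the canonical start site were chosen after seeing the data. Depth is unknown, so a gene without a peak may have a signal below the authors' threshold.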
